A study of Mus musculus with 2 samples.

Results

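This account covers 10 genes that carry iron into, through and out of a cell: the transferrin receptors Tfrc and Tfr2, the iron transporter Slc11a2, the endosomal ferrireductase Steap3, the mitochondrial iron importers Slc25a37 and Slc25a28, the ferritin chains Fth1 and Ftl1, the iron exporter Slc40a1 and the iron sensor Ireb2. They were taken by name, through the gene identifiers of a mouse GENCODE annotation and with no threshold on a measured value, though earlier results of these data were known when the group was drawn up. They are 10 of the 43346 Ensembl gene rows in the tables, with 40 annotated transcripts. The RNA came from MEL cells, an immortalized mouse erythroleukemia line whose cells resemble red cell precursors and which start to make hemoglobin on treatment with DMSO (dimethyl sulfoxide). Both samples were cells kept for 5 days in 2% DMSO, and total RNA fragments of 300 to 350 bases were sequenced. The series held 2 libraries of this 1 condition, replicate 1 with 65109488 estimated counts and replicate 2 with 90856320. Although the labels number them as biological replicates, they give 1 biosample record for the pair, and part of the difference between them may be technical. Untreated cells were not analysed here, so nothing below is an effect of DMSO. With 1 library against 1 there is no test between them.

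The cells' label was checked against marker genes. All 10 erythroid markers, among them the globins, Gata1 and Klf1, reached at least 1 TPM, a level scaled for transcript length and for the size of the library, in both libraries, with a summed level of 6564 TPM in replicate 1 and 13712 in replicate 2. None of 8 macrophage markers reached 1 TPM (summed level 0.62 TPM in replicate 1 and 0.43 in replicate 2), and Vsig4, Marco and Spic had 0 counts. None of 8 hepatocyte markers did either (0.06 and 0.07 TPM), and Alb, Ttr, Serpina1a and Hamp had 0 counts. Of 6 megakaryocyte markers 3 reached 1 TPM, with 29.4 ± 6.63 TPM of Pf4, 15.1 ± 5.67 of Itga2b and 1.51 ± 0.608 of Gp5 (SD, n = 2), and of 6 granulocyte markers only Prtn3 did, at 2.81 ± 1.33 TPM. No lymphoid or fibroblast marker reached 1 TPM in both libraries. The lymphoid markers Ptprc (1.49 TPM in replicate 1 and 0.92 in replicate 2) and Lck (1.27 and 0.64) passed it in replicate 1 only. Ptprc had 1287 counts in replicate 1 and 1496 in replicate 2. The highest fibroblast marker, Col1a1, had 0.08 and 0.04 TPM. TPM runs low in these total RNA libraries, as described below, so a level under 1 TPM does not show absence.

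A red cell precursor takes up iron almost wholly as transferrin bound to the receptor Tfrc. In the acidified endosome Steap3 reduces the released iron, Slc11a2 carries it into the cytosol, and Slc25a37 or Slc25a28 brings it into the mitochondrion, where heme is made. Surplus iron is held in ferritin shells built of Fth1 and Ftl1 chains, and Slc40a1 is the cell's exporter. Many of these mRNAs carry an iron-responsive element, a hairpin with a CAGUGN loop above a stem with a bulged C. When iron is scarce, the iron regulatory proteins Ireb2 and Aco1 bind it, which blocks translation where the hairpin lies in the 5′ UTR and protects the mRNA from decay where it lies in the 3′ UTR.

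That hairpin is a known control point of some of these genes, and the transcripts below differ in whether they hold it. Its sites in the members' coding transcripts are therefore shown first. The annotated transcripts were searched, on the transcript's strand, for a C, any 5 bases and then CAGTGN, with at least 4 of the 5 upper stem positions able to pair (G with C, A with T, or G with T). This held in 5 of the 10 genes, with 8 sites. Each window is 30 bases, 5′ to 3′ on the transcript's strand, written as DNA on GRCm38, with the loop in capitals. The sites in a 5′ UTR were these:
Fth1, chr19:9982732-9982761, plus strand: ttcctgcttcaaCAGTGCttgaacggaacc
Ftl1, chr7:45459778-45459807, minus strand: gtcttgcttcaaCAGTGTttgaacggaaca
Slc40a1, chr1:45925464-45925493, minus strand: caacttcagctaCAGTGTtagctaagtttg
The sites in a 3′ UTR were these:
Tfrc, chr16:32631219-32631248, plus strand: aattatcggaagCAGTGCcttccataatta
Tfrc, chr16:32631598-32631627, plus strand: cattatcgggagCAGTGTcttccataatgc
Tfrc, chr16:32631663-32631692, plus strand: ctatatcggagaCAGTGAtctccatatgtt
Tfrc, chr16:32631710-32631739, plus strand: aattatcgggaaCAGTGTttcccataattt
Slc11a2, chr15:100395152-100395181, minus strand: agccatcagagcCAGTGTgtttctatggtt

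The windows of the ferritin chains had the same base at 26 of 30 positions, while those of Fth1 and Slc40a1 matched at 13. The 4 Tfrc windows matched each other at 18 to 25 positions. All 5 stem positions could pair in Fth1, Ftl1, Slc40a1 and the 4 Tfrc sites, and 4 could in Slc11a2. The letters alone are common: the motif was in 57.2% of 47459 protein-coding transcripts, the motif with 4 or 5 pairs in 8.15% of them, and the motif with 5 pairs in 0.959%. By gene, 10.3% of 21551 protein-coding genes had a transcript with 4 or 5 pairs. The rule of 4 pairs was chosen after the sequences were seen. No such site was found in annotated transcripts of Tfr2, Steap3, Slc25a37, Slc25a28 or Ireb2.

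All 10 genes were above 1 TPM in both libraries, where 37.3% of the annotated protein-coding genes were. Their mean levels ran from 3.51 TPM to 298 TPM, with ferritin far above the rest. The 10 genes summed to 548 TPM in replicate 1 and to 608 TPM in replicate 2, and of this Fth1 and Ftl1 made up 80.8% in replicate 1 and 85.8% in replicate 2. TPM has a fixed sum over all rows of a total RNA table, short RNAs included, and nuclear protein-coding genes held only 13.2% of it in replicate 1 and 12.7% in replicate 2, so these values are lower than the same genes would have in a table of mRNA alone. Every member had at least 2231 counts in each library, and the authors' posterior standard deviation of a member's count was at most 0.0687% of it.

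**Figure D1:**
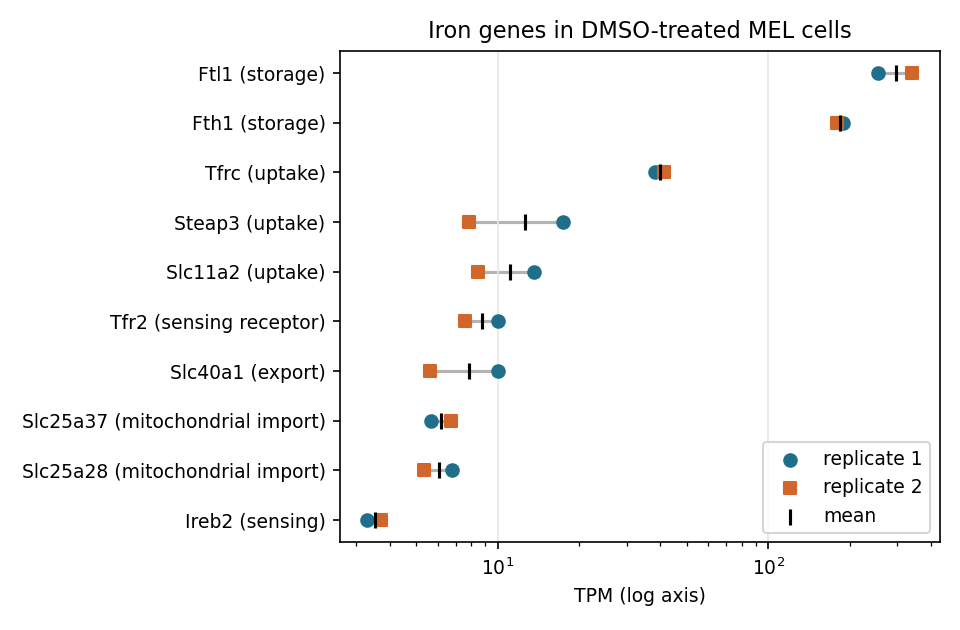
Level of each of the 10 iron genes in TPM (horizontal log axis) in replicate 1 (circles) and replicate 2 (squares), with the mean as a tick. Ftl1 and Fth1 lie between 180 and 342 TPM, Tfrc near 40 TPM and the other 7 genes between 3.30 and 17.45 TPM, and among the genes from Steap3 to Slc25a28 the ranges of neighbours overlap.

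Ftl1, the light chain that promotes iron core formation inside the shell (ENSMUSG00000050708, chr7:45457944-45459884, minus strand), had 254 TPM in replicate 1 and 342 TPM in replicate 2, a mean of 298 ± 61.7 (SD, n = 2). Fth1, the heavy chain with the ferroxidase site (ENSMUSG00000024661, chr19:9980598-9985098, plus strand), had 189 TPM in replicate 1 and 180 TPM in replicate 2, a mean of 184 ± 6.07. Among protein-coding genes Ftl1 ranked 91 in replicate 1 and 65 in replicate 2, and Fth1 ranked 118 and 123. The light chain was the more abundant mRNA in both libraries. The ratio of Ftl1 to Fth1 was 1.35 in replicate 1 and 1.90 in replicate 2 (1.62 ± 0.388), with Fth1 close to level between the libraries on this scale and Ftl1 not.

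Ferritin genes have many processed copies in the mouse genome, and reads from near-identical copies can be split by the counting. Of 17 annotated copies of Ftl1 with at least 85% identity over at least 200 bases and 50% of their own length, 11 were in the tables and 7 had counts. Together the copies held 4.16% of the counts of Ftl1 and its copies in replicate 1 and 4.15% in replicate 2. Nearly all of this was Ftl1-ps1 on chromosome 13 (chr13:74399694-74407346), which is annotated as protein-coding, is 99.56% identical to Ftl1 over 910 bases and also holds a loop with 5 pairs. Ftl1-ps1 was given 2101 counts in replicate 1 and 4659 in replicate 2, or 13.3 ± 2.79 TPM, and its own level is uncertain for this reason. Next came Gm15590 with 23.3 counts in replicate 1 and 33.0 in replicate 2, and Gm7541 with 16 and 29. With all copies added, Ftl1 would be 266 TPM in replicate 1 and 358 TPM in replicate 2. Fth1 had 1 copy in the tables, Gm6977, with 20 counts in replicate 1 and 41 in replicate 2. Transcripts annotated with the loop made up nearly all of both chains: Fth1-201 is the single Fth1 transcript listed and holds the loop in the annotation searched, where it has 929 bases against 866 in the authors' table, and Ftl1-201 held 97.8% ± 0.138 of the TPM of Ftl1. The tables list 4 further Ftl1 transcripts with identifiers that are not in the annotation used here.

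Tfrc, the receptor that brings in iron-loaded transferrin (ENSMUSG00000022797, chr16:32608920-32632794, plus strand), had 38.1 TPM in replicate 1 and 41.2 TPM in replicate 2, a mean of 39.7 ± 2.18. It was the third gene of the 10 in both libraries and lay clear of its neighbours, below Fth1 and above Steap3. The full-length coding transcript Tfrc-201, whose last exon holds the 4 sites shown above, had 26.6 TPM in replicate 1 and 32.4 TPM in replicate 2. It held 69.8% of the TPM of the gene in replicate 1 and 78.7% in replicate 2. The retained-intron transcript Tfrc-204, which ends in the same 3′ region and holds the same 4 sites, had 3.72 TPM in replicate 1 and 4.57 TPM in replicate 2. Transcripts with the sites together held 84.7% ± 7.20 of the TPM of Tfrc, and 96.1% ± 2.23 of its counts, the other transcripts being shorter.

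Tfr2, a second transferrin receptor that senses iron-loaded transferrin and associates with the erythropoietin receptor (ENSMUSG00000029716, chr5:137569840-137587481, plus strand), had 10.01 TPM in replicate 1 and 7.55 TPM in replicate 2. Its mean of 8.78 ± 1.74 TPM was well below that of Tfrc, and the ratio of Tfrc to Tfr2 was 3.81 in replicate 1 and 5.46 in replicate 2 (4.63 ± 1.17). The tables list 1 Tfr2 transcript.

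Steap3, the ferrireductase of the transferrin cycle (ENSMUSG00000026389, chr1:120190757-120272705, minus strand), had 17.45 TPM in replicate 1 and 7.85 TPM in replicate 2, a mean of 12.65 ± 6.79. As a ratio of the libraries, no other member was so far apart. It ranked 1047 among protein-coding genes in replicate 1 and 2050 in replicate 2. All 5 Steap3 transcripts in the tables are annotated as protein-coding. Steap3-202 led with 77.0% of the TPM in replicate 1 and 73.3% in replicate 2, with 13.4 TPM in replicate 1 and 5.76 TPM in replicate 2. The longest form, Steap3-203, differed less in level, with 0.74 TPM in replicate 1 and 0.58 TPM in replicate 2, and held 4.24% of the TPM in replicate 1 and 7.38% in replicate 2.

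Slc11a2, the transporter also known as DMT1 (ENSMUSG00000023030, chr15:100387898-100425072, minus strand), had 13.7 TPM in replicate 1 and 8.47 TPM in replicate 2, a mean of 11.1 ± 3.68. Its 2 leading transcripts end in different last exons. Slc11a2-205 ends in the upstream one (chr15:100392563-100395323), which holds the site in its 3′ UTR, and had 3.22 TPM in replicate 1 and 1.63 TPM in replicate 2. Slc11a2-201 ends in the downstream one (chr15:100387898-100389161), without the site, and had 8.77 TPM in replicate 1 and 5.77 TPM in replicate 2. The form without the site was thus the more abundant in both libraries, by 2.72 times in replicate 1 and 3.54 times in replicate 2. The form with the site held 21.4% ± 3.04 of the TPM of Slc11a2, and 31.8% ± 3.95 of its counts. At the other end of the gene, the 3 listed transcripts that begin at the most upstream first exons (Slc11a2-202, Slc11a2-207 and Slc11a2-208) had 4.83 counts together in replicate 1 and 2.82 in replicate 2. The transcripts that begin at the first exon shared by Slc11a2-201 and Slc11a2-205 held 98.3% of the counts of the gene in replicate 1 and 98.4% in replicate 2. The annotation marks the 3′ ends of the 3 upstream transcripts as incomplete, so reads from farther downstream could not be given to them. These shares therefore do not measure the use of the first exons. The gene overlaps Gm5475 on the opposite strand, which had 50 counts in replicate 1 and 30 in replicate 2, and whether the counting used strand is not given in the sources used here.

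Slc40a1, ferroportin, the only known cellular iron exporter (ENSMUSG00000025993, chr1:45908068-45926523, minus strand), had 10.04 TPM in replicate 1 and 5.62 TPM in replicate 2, a mean of 7.83 ± 3.13. Much of this gene level lay in 3 short transcripts, Slc40a1-203, Slc40a1-205 and Slc40a1-206, of 370 to 451 bases. They begin at an upstream first exon (chr1:45926424-45926519) and splice into the next exon past the site shown above, so they lack the loop. Together they had 6.36 TPM in replicate 1 and 3.24 TPM in replicate 2, or 60.5% ± 4.14 of the TPM of Slc40a1, but only 11.3% ± 2.08 of its counts. The annotation marks their 3′ ends as incomplete, so their true length, and with it their TPM, is not known. The full-length transcript Slc40a1-201, which holds the loop in its 5′ UTR, had 2.96 TPM in replicate 1 and 2.04 TPM in replicate 2. It held 77.0% of the counts of the gene in replicate 1 and 81.5% in replicate 2. Loop-bearing transcripts therefore made up 36.8% ± 4.96 of Slc40a1 by TPM and 88.0% ± 2.39 by counts. The counts given to the 3 short transcripts, 379 in replicate 1 and 315 in replicate 2, are above the limit of 3 that a count of 0 allows.

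**Figure D2:**
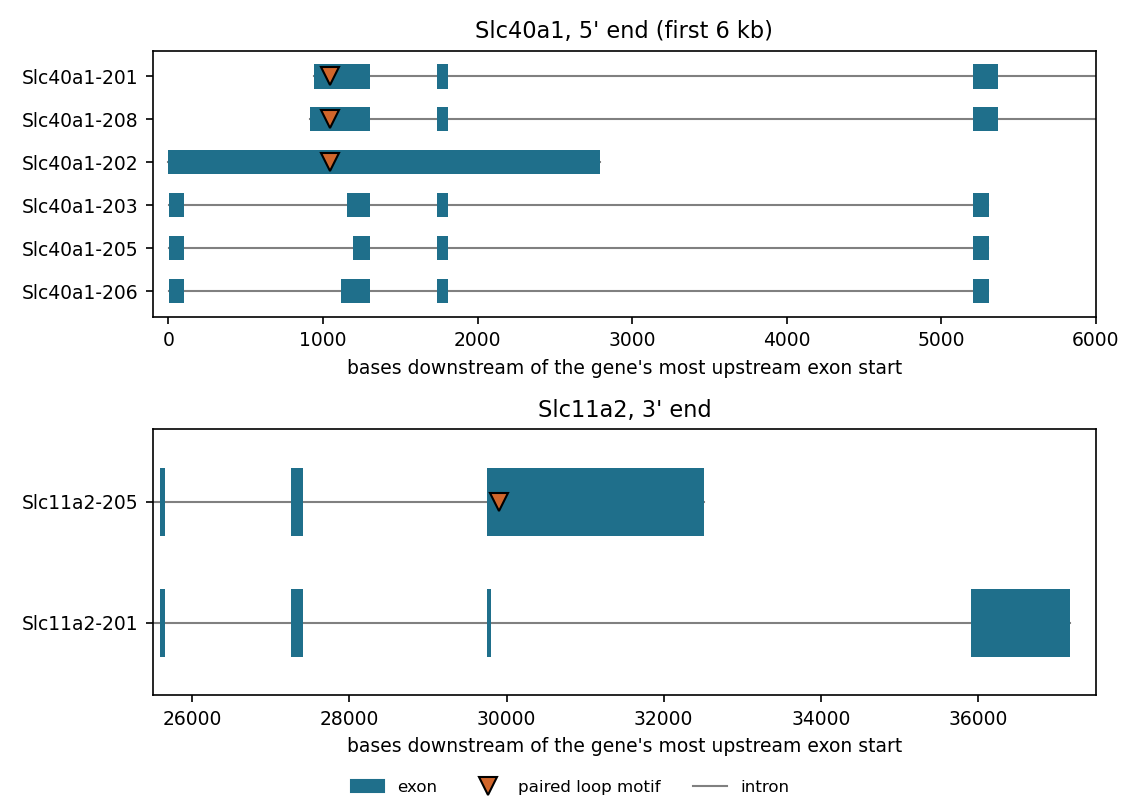
Exons (boxes) and introns (lines) of the named Slc40a1 and Slc11a2 transcripts, drawn to scale in bases downstream of the most upstream exon start of each gene, with the paired loop motif as a triangle. Slc40a1-203, Slc40a1-205 and Slc40a1-206 begin upstream and splice past the loop, and Slc11a2-205 ends in the exon with the loop while Slc11a2-201 ends farther downstream without it.

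Slc25a37, mitoferrin-1, the main mitochondrial iron importer of erythroid cells (ENSMUSG00000034248, chr14:69241848-69285112, minus strand), had 5.66 TPM in replicate 1 and 6.72 TPM in replicate 2, a mean of 6.19 ± 0.750. Slc25a28, mitoferrin-2, its widely expressed relative (ENSMUSG00000040414, chr19:43663801-43674881, minus strand), had 6.80 TPM in replicate 1 and 5.34 TPM in replicate 2, a mean of 6.07 ± 1.03. The order of this pair was opposite in the 2 libraries. The ratio of Slc25a37 to Slc25a28 was 0.832 in replicate 1 and 1.26 in replicate 2 (1.05 ± 0.301).

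The transcripts of the 2 importers differed in kind. Slc25a28 has 1 listed transcript, which is protein-coding. Most of the Slc25a37 level instead lay in a retained-intron transcript, Slc25a37-203, with 3.33 TPM in replicate 1 and 3.64 TPM in replicate 2. It keeps a stretch of 1756 bases (chr14:69247638-69249393) that the coding transcript splices out. Its share was 56.6% ± 3.37 of the TPM of Slc25a37, and 70.1% ± 2.75 of its counts. Nearly all other bases of Slc25a37-203 are shared with the coding transcript Slc25a37-201, so the split between them rests on the authors' counting. The libraries are of total RNA, and whether reads in this stretch came from RNA not yet spliced was not tested. The coding transcript Slc25a37-201 had 1.38 TPM in replicate 1 and 1.87 TPM in replicate 2, and Slc25a37-204, annotated as a target of nonsense-mediated decay, had 0.91 and 1.10 TPM. Counted by the leading coding transcript in place of the gene, Slc25a37 was the lowest of the 10, with 1.63 ± 0.346 TPM, below Slc40a1-201 with 2.50 ± 0.651 and Ireb2-201 with 3.51 ± 0.297. Of the 4 annotated genes that overlap Slc25a37, Gm20236 lies on the same strand and had 180 counts in each library, and Gm31748 lies on the other strand and had 119 counts in replicate 1 and 0 in replicate 2, against 6429 and 12326 counts of Slc25a37.

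Ireb2, iron regulatory protein 2 (ENSMUSG00000032293, chr9:54863789-54912530, plus strand), which is degraded when iron is plentiful, was the lowest of the 10 genes with 3.30 TPM in replicate 1 and 3.72 TPM in replicate 2. Its mean of 3.51 ± 0.297 TPM lay clear of Slc25a28 above it. Its partner Aco1, iron regulatory protein 1, which is not among the 10 genes, had 4.17 TPM in replicate 1 and 3.71 TPM in replicate 2. The ratio of Ireb2 to Aco1 was 0.791 in replicate 1 and 1.00 in replicate 2 (0.897 ± 0.149), so the 2 sensor mRNAs were of like level. Fbxl5, the iron-binding ubiquitin ligase subunit that marks Ireb2 for degradation, had 5.42 TPM in replicate 1 and 5.82 TPM in replicate 2.

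**Figure D3:**
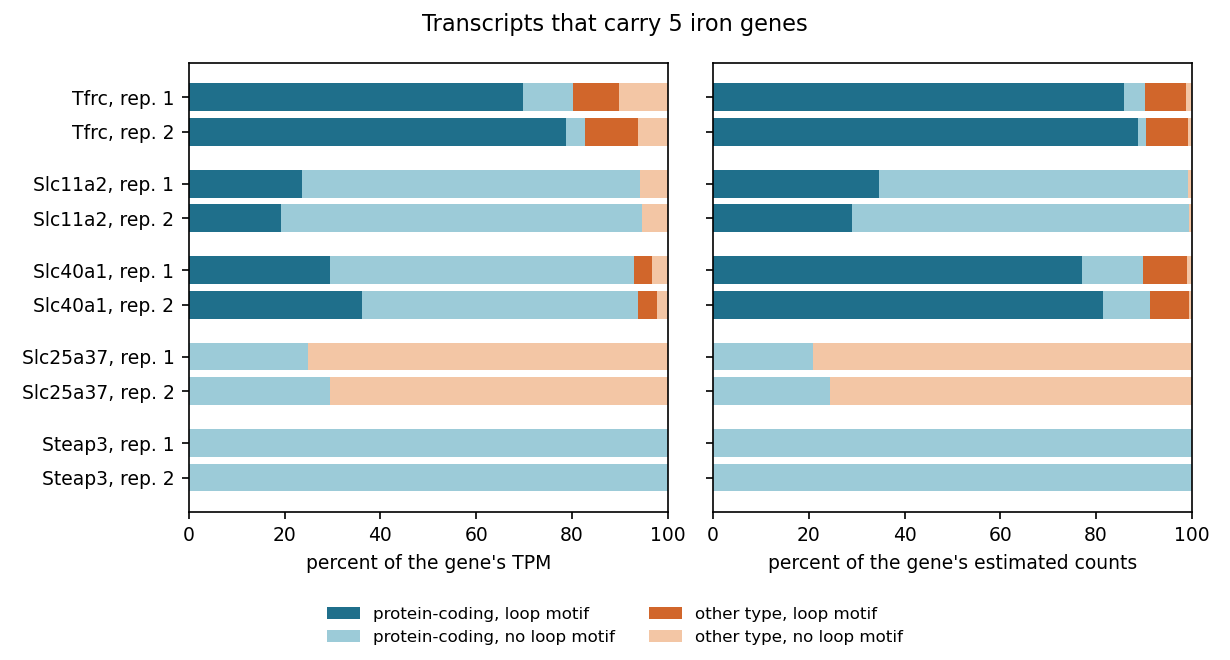
Share of the TPM (left) and of the estimated counts (right) of 5 iron genes held by protein-coding and other transcripts with and without the paired loop motif, in percent, with replicate 1 above replicate 2 for each gene. Loop-bearing transcripts hold most of Tfrc on both scales, a minority of Slc11a2 on both, and 36.8% of Slc40a1 by TPM against 88.0% by counts, while non-coding or decay transcripts hold 72.8% of Slc25a37 by TPM.

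In the order of mean TPM the genes ran Ftl1, Fth1, Tfrc, Steap3, Slc11a2, Tfr2, Slc40a1, Slc25a37, Slc25a28 and Ireb2. Neighbours were apart, with no overlap of their values in the 2 libraries, at the top (Ftl1 above Fth1, Fth1 above Tfrc, Tfrc above Steap3) and at the bottom (Slc25a28 above Ireb2). In the 5 steps between Steap3 and Slc25a28 the values of neighbours overlapped. Of these steps only that from Slc11a2 to Tfr2 kept its order in both libraries. The mRNA of the receptor Tfrc exceeded that of the exporter Slc40a1, with a ratio of 3.80 in replicate 1 and 7.33 in replicate 2 (5.56 ± 2.50), and this ratio takes the short Slc40a1 transcripts as part of the gene.

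The 2 libraries are of the same condition, so a difference between them is a measure of spread. On counts scaled by the trimmed mean of M values (TMM), as log2 of replicate 1 over replicate 2 with the exact 95% interval of counting error, Steap3 was the member farthest above 0 at 0.83 (0.79 to 0.88), or 1.78-fold. Slc11a2 followed at 0.45 (0.41 to 0.49) and Slc40a1 at 0.34 (0.27 to 0.41), then Tfr2 at 0.13 (0.081 to 0.17). Ftl1 was farthest below 0 at -0.70 (-0.71 to -0.68), or 1.62-fold higher in replicate 2. Tfrc at -0.52 (-0.54 to -0.50), Slc25a37 at -0.49 (-0.53 to -0.45), Ireb2 at -0.45 (-0.51 to -0.40) and Fth1 at -0.20 (-0.22 to -0.18) lay on the same side. For Slc25a28, at 0.073, the interval of -0.0069 to 0.15 included 0. So 5 members were higher in replicate 1 and 5 in replicate 2, with a median log2 ratio of -0.06 beside 0.0037 over the 15275 genes with 10 or more counts in a library.

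None of the 10 genes reached 2-fold, which 8.18% of those 15275 genes did, 4.95% higher in replicate 1 and 3.23% higher in replicate 2. At 1.5-fold 2 of the 10 genes did, against 21.9% of all tested genes: Steap3 was higher in replicate 1, where 12.9% of tested genes were, and Ftl1 in replicate 2, where 9.07% were. Many tested genes have few counts, and among the 8003 protein-coding genes at 1 TPM or more in both libraries, which are nearer to the members in level, 1.19% reached 2-fold and 8.31% reached 1.5-fold. With 10 genes, nothing is read from a count of 2. The median size of the log2 ratio, whatever its sign, was 0.45 for the members, 0.28 over all tested genes and 0.20 over those 8003 protein-coding genes. TPM shifts this picture, since the median tested gene was 0.30 higher in replicate 1 on that scale. On TPM as deposited the log2 ratio of Steap3 was 1.15 and that of Fth1 turned to 0.067, still below that shift. The ratio of Steap3 moved by slightly more than the shift. Those of Slc40a1 and Tfrc moved farther, Slc40a1 to 0.84 and Tfrc to -0.11. In both genes the mean transcript length in the authors' tables differed between the libraries. It was 1384 bases in replicate 1 and 1589 in replicate 2 for Slc40a1, and 4002 and 4354 bases for Tfrc. It also differed, by less, for Steap3 (2616 and 2685 bases), Slc11a2 (3056 and 2986.5) and Slc25a37 (4867 and 4740). The part of transcript length in these moves was not tested. Of the 10 erythroid markers, 8 had the higher TPM in replicate 2: Alas2, the erythroid enzyme that starts heme synthesis, had 63.2 TPM in replicate 1 and 176 TPM in replicate 2, and the red cell anion exchanger Slc4a1 had 1.33 and 5.99 TPM. The erythroid regulator Gata1 differed less, with 57.4 TPM in replicate 1 and 64.3 TPM in replicate 2. Klf1 (32.9 and 30.7 TPM) and Epor (31.2 and 30.4 TPM) had slightly higher TPM in replicate 1. Their log2 differences were smaller than the shift of 0.30 toward replicate 1 on that scale, so they do not show higher expression there. The markers' part in the members' differences was not tested.

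**Figure D4:**
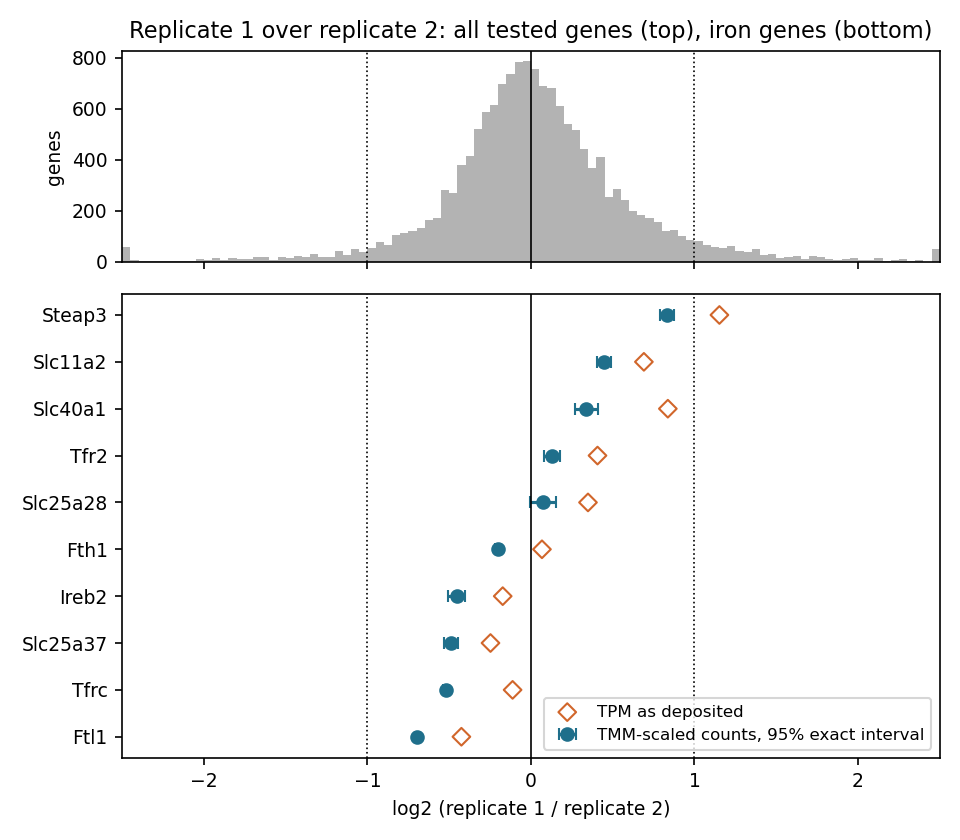
Log2 ratio of replicate 1 over replicate 2 for all 15275 tested genes (upper histogram, with values beyond the axis stacked in its end bins) and for the 10 iron genes (lower panel) on TMM-scaled counts with exact 95% intervals (filled circles) and on TPM as deposited (open diamonds). Dotted lines mark 2-fold, and on scaled counts the 10 genes run from -0.70 for Ftl1 to 0.83 for Steap3, all inside those lines.

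The members belong to a wider iron pathway, described by a list of 49 symbols, of which 47 matched a gene and 26 reached 1 TPM in each library. Without the 10 members, 16 of 37 matched genes did. Of these 16, 6 were higher in replicate 1 and 10 in replicate 2 on scaled counts, with a median log2 ratio of -0.23, while on TPM 8 were higher in each. Of the 8003 protein-coding genes at 1 TPM or more in both libraries, 3503 were higher in replicate 1 and 4500 in replicate 2 on scaled counts, with a median of -0.044. By scaled counts 1 of the 16 passed 2-fold, Alas2, at -1.78, where 1.19% of those 8003 genes did. Next on that side were Abcb10 at -0.88 and Ncoa4 at -0.87, and on the other side Slc39a14 at 0.48, Pcbp1 at 0.37 and Mon1a at 0.21 were the farthest.

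Among importers and receptors, 5 of 8 were at 1 TPM or more, the 3 members and the metal transporters Slc39a8 (3.79 TPM in replicate 1 and 5.27 TPM in replicate 2) and Slc39a14 (3.90 and 2.21 TPM). Lrp2 had 1 count in replicate 1 and Scara5, a ferritin receptor, had 3. Of the ferrireductases only Steap3 reached 1 TPM of 5. Steap1 and Steap4 had 0 counts in both libraries, Steap2 had 2 counts in replicate 2, and Cybrd1, the duodenal ferrireductase, had 0.06 TPM in each library. The 0 counts allow up to 0.0461 CPM (counts scaled for library size alone) in replicate 1 and 0.0330 in replicate 2, where Steap3 had 10360 and 7942 counts. Of the genes that recycle the receptor through endosomes, the sorting nexin Snx3 had 13.7 ± 0.778 TPM, the retromer subunit Vps35 11.6 ± 3.01 TPM and the exocyst subunit Exoc6 3.98 ± 0.0778 TPM.

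The third gene of mitochondrial iron import was Abcb10, a transporter of the inner membrane that stabilizes Slc25a37 in mouse erythroid cells. It had 21.6 TPM in replicate 1 and 32.7 TPM in replicate 2. That is 3.81 times the Slc25a37 level in replicate 1 and 4.87 times in replicate 2 (4.34 ± 0.748), a ratio chosen after the values were seen. Among storage genes, the iron chaperones Pcbp2 and Pcbp1, which load ferritin, were at 1 TPM or more as well, Pcbp2 with 25.3 ± 3.57 TPM and Pcbp1 with 11.7 TPM in replicate 1 and 7.48 TPM in replicate 2. Ncoa4, the receptor that takes ferritin to the lysosome, had 8.94 TPM in replicate 1 and 13.1 TPM in replicate 2, and the mitochondrial ferritin Ftmt had 0 counts in both.

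On the export side the oxidases that act with Slc40a1 were almost without reads: Cp had 3 counts in replicate 1 and 9 in replicate 2, Heph 1 and 0, and Hephl1 2 and 1. Mon1a, which helps to move ferroportin to the cell surface, had 1.48 ± 0.368 TPM. Most genes of the hepcidin axis, which liver cells use to sense body iron, were at or near 0: Hamp had 0 counts, Hamp2 1 count in replicate 2, Hfe 1 count in replicate 1 and 3 in replicate 2, Hfe2 1 in each, and Bmp6 2 and 1. Tfr2 was thus measured at 8.78 TPM while its liver partner Hfe was at the floor. Tmprss6 had 20 counts in replicate 1 and 17 in replicate 2. Erfe, erythroferrone, the hormone by which red cell precursors lower hepcidin, had 1.41 TPM in replicate 1 and 1.12 TPM in replicate 2. Transferrin itself, Trf, had 1 count in each library.

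Of the other mRNAs known for an iron-responsive element, Alas2 was the highest with 120 ± 79.8 TPM. Its loop-bearing transcripts held 62.5% ± 1.26 of the TPM of the gene and 88.2% ± 0.611 of its counts, the other transcripts being shorter. Cdc42bpa had 3.56 ± 0.0566 TPM and no transcript that met the loop rule, Cdc14a had 0.63 ± 0.0424 TPM, and Epas1 had 0 counts in both libraries.

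**Figure D5:**
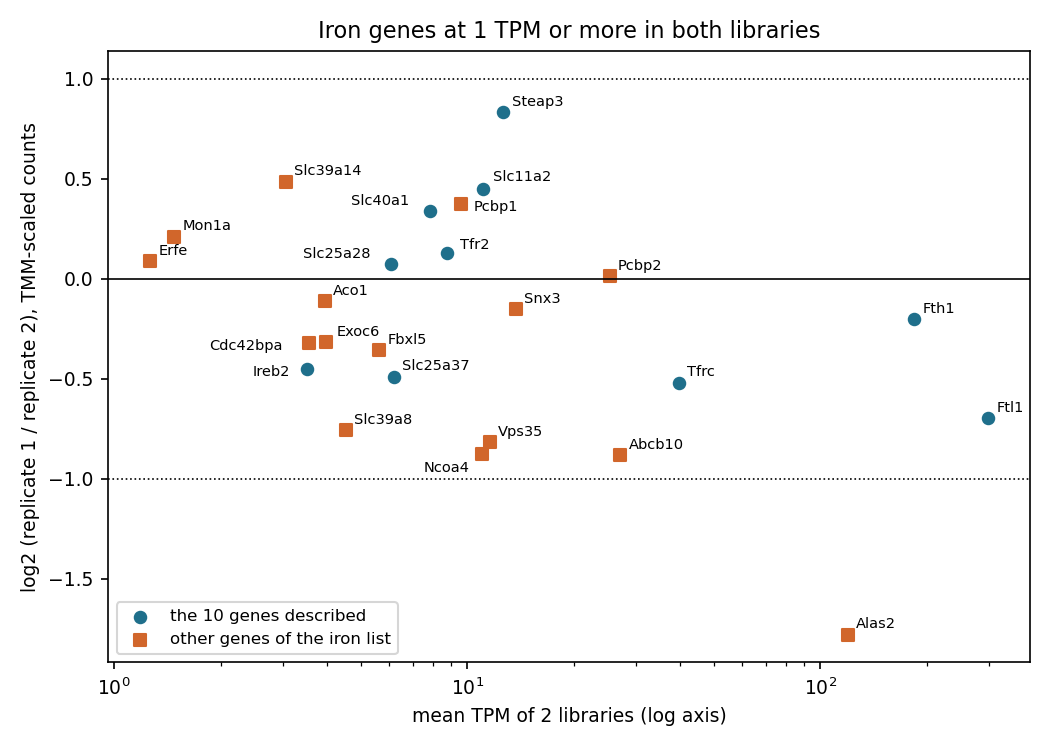
Log2 ratio of replicate 1 over replicate 2 on TMM-scaled counts (vertical axis) against the mean TPM of the 2 libraries (horizontal log axis) for 25 genes of the iron list at 1 TPM or more in both, with the 10 members as circles and 15 other genes as squares. Dotted lines mark 2-fold, and only Alas2, at -1.78, lies outside them.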

How the data were processed

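The 2 samples were total RNA of MEL cells in 2% DMSO for 5 days. The authors used mm10 and GENCODE M4, per the readmes; aligner and quantification program are not given in the sources. The authors' gene and transcript tables give, per the file headers, estimated counts, TPM, FPKM, posterior means and standard deviations and, for transcripts, the percent of the gene's TPM. FPKM as deposited served only as an alternative. Names, types and coordinates (1-based) came from GENCODE M21 on GRCm38, to which 42462 of 43346 Ensembl rows matched; the search for the loop used the M21 transcripts, which differ in length from the authors' for Fth1, Slc25a28 and Ireb2.

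The members and lists were chosen with earlier results of these data known. Levels are mean ± SD of 2 libraries. Rounded estimated counts were TMM-scaled with edgeR 4.0.16 (R 4.3.3) over genes with 10 or more counts in a library, and 0.5 was added. Log2 ratios of replicate 1 over replicate 2 got exact (Clopper-Pearson) 95% intervals, which cover counting error only. On simulated data the median log2 ratio was checked, but the coverage of the intervals was not. No p-value was computed. A chi-square statistic over genes was 368 per degree of freedom, so the tables are not 1 library deposited under both names; it does not show separate cultures, and n = 2 counts libraries. Copies were found with BLAST 2.17.0.

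Named were all members, list genes with 0 counts in both libraries, the 3 highest of each role, the 3 farthest from 0 in each direction of those with 100 or more counts, the 3 leading copies of each chain, and markers that led a list or passed 1 TPM; other list genes near 0, and the ratio to Abcb10, were added after their values were seen. Values of 2 list genes are not reported here singly, though they count in the list. Alternatives were other scalings, thresholds, count minimums, posterior means, FPKM, shares by counts and each library left out.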

Additional observations from a re-analysis of the deposited data

How the results depend on the processing

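Of 178 recomputed values, 142 were called the same, 35 moved and 1 reversed in sign. A level, ratio or share was called the same if it stayed within the SD of the 2 libraries. A log2 ratio had to stay inside its counting interval, and a number of genes within 1.5-fold. With 2 libraries, leaving 1 out cannot move a mean level, ratio or share beyond the SD. A ratio of 2 genes cannot change on rescaling, and FPKM set to the same sum is nearly TPM. Many of the 142 were thus fixed in advance, and the tally does not measure robustness. The reversed value was the log2 ratio of Fth1, which was 0.067 on TPM as deposited against -0.20 on scaled counts. Other scalings moved the members' log2 ratios by at most 0.031 (total counts) and 0.0045 (DESeq2 1.42.0 size factors). The number of members at 2-fold or more, 0 on scaled counts, was 1 on TPM (Steap3) and 2 at 1.5-fold. The number of all genes at 2-fold, 1250, was 1976 on TPM, 3349 at 1.5-fold, 6600 with 1 or more counts required in a library and 395 with 100 or more. Shares by counts in place of TPM were 96.1% for Tfrc, 31.8% for Slc11a2, 88.0% for Slc40a1 and 98.3% for Ftl1 (loop-bearing), 70.1% for the retained intron of Slc25a37 and 78.3% for Steap3-202. With all 5 stem positions required to pair, an alternative added after the sequences were seen, the Slc11a2 share was 0. Rescaled to nuclear protein-coding genes, every member's TPM was higher, such as 1424 for Fth1 and 27.1 for Ireb2. No paired analysis was possible because the labels give 1 group. With 1 library left out, each level is that of the other library. The tables hold 1 condition and no untreated library, the transcript split rests on the authors' annotation and counting, and with 2 libraries no cause of a difference between them was tested.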
